A study of Mus musculus with 2 samples.

Results

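The cells described here are glioma cells that held transcripts of DNA replication genes. They are called S phase cells below, after the phase of the cell cycle in which DNA is copied. The data hold no measure of DNA content or synthesis, so cells about to enter S phase were not told apart. They came from mouse brain tumours induced by the growth factor PDGFB, whose gene had been transferred in utero into cells lining the telencephalic ventricles of C57BL/6 embryos. Tumours were taken about 40 days after birth, their cells were dissociated and enriched by GFP fluorescence, and 2 tumours were mixed into each of 2 pools before droplet partitioning of 4000 cells per pool. There was 1 group and no untreated or normal tissue: every cell compared below, in all 4 sets, came from a PDGFB tumour, and neither the promoter driving PDGFB nor the share of each tumour in a pool is given in the sources used here. A cell counted as S phase when it held unique molecular identifiers (UMIs, each a captured transcript) of at least 5 of 10 replication genes and of fewer than 4 of 8 mitotic genes. This rule chose 195 of 3506 kept cells in pool 1 and 178 of 3278 in pool 2, 373 of 6784 in all. It used measured values, so the levels of its 18 genes describe the choice and support nothing.

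Before a chromosome can be copied, the ORC complex, Cdc6 and Cdt1 load the ring-shaped Mcm helicase on origins in G1, and Cdc45 and the GINS complex start it in S phase. The genes for these proteins, for the polymerases and for nucleotide supply are transcribed together by E2F factors once cyclin D and cyclin E kinases release them from the Rb family. In the telencephalon the dividing cells that PDGF acts on are oligodendrocyte precursor cells (OPCs), which carry its receptor Pdgfra. Genes of mitosis come later and are read through other promoter elements.

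S phase cells were set against 3 other sets from the same pools. Mitotic cells held UMIs of at least 4 of the 8 mitotic genes, 278 in pool 1 and 217 in pool 2, and 150 and 118 of them also held at least 5 of the replication genes. Depth-matched cells held at most 1 replication gene and 0 mitotic genes and were drawn to match the UMI counts of the S phase cells, 190 in pool 1 and 171 in pool 2. The remaining set was all kept cells outside S phase, 3311 in pool 1 and 3100 in pool 2. Pool 1 held 33.9 M UMIs in 3843 barcodes and pool 2 held 40.9 M UMIs in 3650 barcodes, and 4 barcodes occurred in both. Levels below are CPM, the UMIs of a gene scaled to 1 M UMIs of its set, compared between sets and not between genes.

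The 10 replication genes of the rule cover the helicase, its loading and its start (Mcm3, Mcm5, Mcm6, Cdc6, Cdc45), deoxynucleotide supply (Rrm2), the copying of DNA methylation and of nucleosomes (Uhrf1, Chaf1b), the acetylation of cohesin (Esco2) and the checkpoint at forks (Clspn). Mcm3 stood at 249.3 CPM (828 UMIs) in S phase cells of pool 1 and 234.9 CPM (957 UMIs) in pool 2, against 29.5 and 23.1 CPM in all other cells. Esco2 had 60.2 and 30.7 CPM in S phase cells against 138.3 and 121.6 CPM in mitotic cells. Rrm2 was likewise lower in S phase cells (148.7 and 103.8 CPM) than in mitotic cells (192.2 and 174.8 CPM). Most of these UMIs of mitotic cells came from the mitotic cells that also held at least 5 replication genes. They gave 706 of 803 and 634 of 678 UMIs of Esco2, and 1025 of 1116 and 897 of 975 UMIs of Rrm2. The mitotic genes were low by the same choice: Cdc20, which activates the anaphase ubiquitin ligase, had 11.7 and 8.83 CPM in S phase cells against 321.5 and 286.0 CPM in mitotic cells. Cells just inside the threshold, with 5 replication genes, numbered 47 and 28, and their Mcm3 level was 164.2 and 187.0 CPM. Cells just outside it, with 4, numbered 70 and 52 and had 131.4 and 105.7 CPM.

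The promoters of 5 rule genes are printed here, with those of Hells and Cdt1, which stood among the genes of largest fold outside the rule, because replication and mitotic genes of the rule differed in which short words their promoters held. RefSeq promoters of GRCm38.p6 run from 250 bases before to 50 bases after a RefSeq start of the gene, and each is given 5′ to 3′ along its gene. That start can differ from the gene's start in GENCODE. The Cdc6 window lies wholly within the GENCODE gene, which begins at base 98907801. Capitals mark, in the first 6, any of the 8-letter E2F-type words TTTCCCGC, TTTGGCGC, TTTCGCGC and TTTGCCGC on either strand, and in the last the word TTTGAA, known as the cell cycle homology region of mitotic genes. Overlapping words are joined in 1 run of capitals. The windows are chr1:20820263-20820562 (minus strand) for Mcm3, chr8:75109259-75109558 (plus) for Mcm5, chr1:128359656-128359955 (minus) for Mcm6, chr11:98907901-98908200 (plus) for Cdc6, chr19:38930740-38931039 (plus) for Hells, chr8:122567765-122568064 (plus) for Cdt1 and chr4:118437294-118437593 (minus) for Cdc20.
Mcm3: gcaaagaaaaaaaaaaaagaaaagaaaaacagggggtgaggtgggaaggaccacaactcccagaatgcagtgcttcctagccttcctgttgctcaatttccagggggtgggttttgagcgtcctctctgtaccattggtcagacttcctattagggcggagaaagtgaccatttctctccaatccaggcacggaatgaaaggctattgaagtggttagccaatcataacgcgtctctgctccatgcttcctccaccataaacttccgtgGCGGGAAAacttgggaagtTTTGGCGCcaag
Mcm5: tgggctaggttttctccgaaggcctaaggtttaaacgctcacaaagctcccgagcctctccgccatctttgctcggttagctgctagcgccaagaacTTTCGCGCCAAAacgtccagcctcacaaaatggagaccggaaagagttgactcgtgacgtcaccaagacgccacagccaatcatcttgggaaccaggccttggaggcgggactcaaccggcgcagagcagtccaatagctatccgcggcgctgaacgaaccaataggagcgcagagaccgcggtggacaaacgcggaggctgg
Mcm6: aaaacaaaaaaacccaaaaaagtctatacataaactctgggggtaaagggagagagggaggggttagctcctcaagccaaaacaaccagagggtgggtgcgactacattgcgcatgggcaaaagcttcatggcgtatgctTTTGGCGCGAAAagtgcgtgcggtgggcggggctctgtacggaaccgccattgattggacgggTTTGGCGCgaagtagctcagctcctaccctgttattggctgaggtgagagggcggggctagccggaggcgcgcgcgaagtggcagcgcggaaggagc
Cdc6: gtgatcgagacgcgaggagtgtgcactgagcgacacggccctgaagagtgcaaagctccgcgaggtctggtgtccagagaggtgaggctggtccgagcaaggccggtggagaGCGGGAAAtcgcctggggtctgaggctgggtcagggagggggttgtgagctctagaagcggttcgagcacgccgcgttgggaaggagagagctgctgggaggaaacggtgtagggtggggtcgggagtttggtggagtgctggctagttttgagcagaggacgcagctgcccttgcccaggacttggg
Hells: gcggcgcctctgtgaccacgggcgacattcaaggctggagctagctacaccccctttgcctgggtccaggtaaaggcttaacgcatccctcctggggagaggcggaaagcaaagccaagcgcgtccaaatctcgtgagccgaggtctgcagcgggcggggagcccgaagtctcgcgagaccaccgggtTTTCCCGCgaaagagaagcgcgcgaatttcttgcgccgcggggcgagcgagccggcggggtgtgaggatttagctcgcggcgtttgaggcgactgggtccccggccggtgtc
Cdt1: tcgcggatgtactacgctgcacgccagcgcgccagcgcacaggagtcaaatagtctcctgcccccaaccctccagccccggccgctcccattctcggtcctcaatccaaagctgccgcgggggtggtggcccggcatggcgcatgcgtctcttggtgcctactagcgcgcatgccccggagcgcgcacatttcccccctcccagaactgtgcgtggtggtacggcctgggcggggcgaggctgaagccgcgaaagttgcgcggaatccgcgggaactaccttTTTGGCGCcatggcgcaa
Cdc20: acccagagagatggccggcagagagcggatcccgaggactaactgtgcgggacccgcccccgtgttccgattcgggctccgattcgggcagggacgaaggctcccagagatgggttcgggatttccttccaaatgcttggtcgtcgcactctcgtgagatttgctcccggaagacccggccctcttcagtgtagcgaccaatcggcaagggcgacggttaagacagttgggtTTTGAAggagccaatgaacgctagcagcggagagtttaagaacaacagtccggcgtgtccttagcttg

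Mcm6 held 3 of the E2F-type words, Mcm3 and Mcm5 held 2 each, and Cdc6, Hells and Cdt1 held 1 each. An E2F-type word was found in 6 of the 9 replication rule genes that had a promoter entry (66.7%), and in 0 of the 7 mitotic rule genes, against 2.6% of all 27025 genes with an entry. TTTGAA was found in 6 of the 7 mitotic rule genes (85.7%) and in 1 of the 9 replication rule genes, against 20.2% of all genes with an entry. Esco2 and Kif20a were not matched. Outside the rule, 80 of the 412 matched genes that were at least 2-fold higher in S phase cells than in depth-matched cells held an E2F-type word (19.4%), against 4.98% of the 9454 matched genes tested. TTTGAA was also more frequent in these 412 genes, at 29.1% against 13.8% of the genes tested. Among the lists, the share with an E2F-type word was 38.9% of 18 licensing and helicase genes, 33.3% of 24 polymerase and clamp genes and 0 of 19 nucleotide synthesis genes. It was 42.9% of 7 cohesion genes and 28.6% of 14 ribosome biogenesis genes, so a high share was not limited to the lists of largest fold. A match is a run of letters and not a measured binding site.

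S phase cells were 5.56% of kept cells in pool 1 (95% interval 4.83 to 6.37%, exact by Clopper-Pearson) and 5.43% in pool 2 (4.68 to 6.26%), a mean of 5.50% ± 0.0932 (SD, n = 2). The share depended on depth. In cells with fewer than 5000 UMIs it was 1.16% in pool 1 and 0.107% in pool 2, and in cells with 20000 or more it was 18.1% and 16.4%. The median depth of S phase cells was 16501 and 19558 UMIs in the 2 pools, against 6850 and 10814 UMIs for all other cells. With each cell thinned to 5000 UMIs, 116 of 2122 cells (5.47%) and 95 of 2340 (4.06%) met the rule, against 8.44% and 7.56% of the same cells unthinned. A cell that lost mitotic genes by thinning could newly meet the rule, so the thinned members need not all be S phase cells of the main choice. How far the greater depth belongs to replicating cells, and how far to a rule that asks for 5 detected genes, was not tested, and this is why depth-matched cells are the main reference below. Barcodes with at least 3 of the microglial markers C1qa, C1qb, C1qc, Cx3cr1, P2ry12 and Tmem119 included 0 S phase cells of 17 in pool 1 and 0 of 16 in pool 2, which by a limit of 3 cells of the total allows shares of up to 17.6% and 18.8%. Those barcodes had medians of 2186 and 6559 UMIs. Barcodes with at least 3 of the oligodendrocyte markers Mog, Mag, Mobp and Mal included 0 S phase cells of 7 in pool 1 and 0 of 19 in pool 2. Their medians were 29810 and 13080 UMIs, and the same limit allows shares of up to 42.9% and 15.8%.

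**Figure D1:**
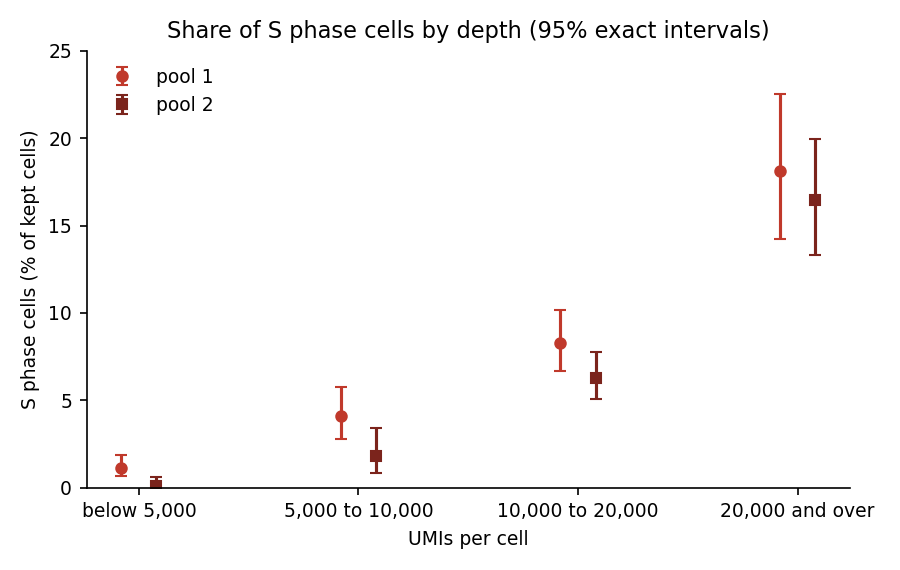
Share of kept cells that met the S phase rule (vertical axis, percent) in 4 ranges of UMIs per cell, with exact 95% intervals that cover counting error only. In both pools the share is lowest below 5000 UMIs (1.16% and 0.107%) and highest at 20000 and over (18.1% and 16.4%).

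The same 373 cells were then examined with genes that the rule did not use. Sums of UMIs per pool and set were compared with edgeR's quasi-likelihood test with the pool as a block and Benjamini-Hochberg adjustment over all genes tested, with a threshold of 0.05. These p-values measure spread between 2 pools, with the dispersion shared over genes, and do not extend to other tumours or mice. The comparisons with depth-matched and with mitotic cells share the S phase sums. Where genes of replication or mitosis are concerned, the cells were chosen by genes of the same programmes, so their direction was fixed by the choice and the size is what is described. Against depth-matched cells 9.01% of the 12152 genes tested were higher in S phase cells and 4.41% were lower, 4.41% being at least 2-fold higher, with a median log2 difference of -0.01 over all genes.

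Loading and start of the helicase had the highest median fold of the 5 replication lists. Of 25 genes outside the rule 22 were higher in S phase cells and 0 lower, with a median log2 fold change of 3.08. Mcm2, a further subunit of the helicase ring, on chromosome 6 (88883474 to 88898780, minus strand, GRCm38), had 146.6 and 123.2 CPM in S phase cells of the 2 pools against 6.12 and 5.58 CPM in depth-matched cells. The pools did not overlap, and the log2 fold change was 4.52 ± 0.15 (SE; edgeR, adjusted p = 6.8e-08). Cdt1, which loads the ring, had 187 and 246 UMIs in S phase cells and 0 and 3 UMIs in depth-matched cells, 56.3 and 60.4 CPM against 0 and 0.837 CPM. Gins2, a GINS subunit, rose by 4.49 ± 0.18 on the log2 scale, at 90.6 and 78.5 CPM against 3.22 and 4.18 CPM. The 3 genes of the list that did not pass were Orc3, Orc4 and Orc5, subunits of the origin recognition complex, whereas Orc1, Orc2 and Orc6 were higher. In this and the other lists of replication, repair, cohesion, E2F and mitotic genes given with 0 lower against depth-matched cells, at most 1 gene per list was lower at an unadjusted p under 0.05 in edgeR, and 0 with DESeq2.

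All 30 polymerase, clamp and fork genes were higher in S phase cells and at least 2-fold so (median 2.75). Pcna, the sliding clamp of the polymerases, on chromosome 2 (132249162 to 132253314, minus strand), had 386.5 and 392.2 CPM in S phase cells against 39.6 and 43.5 CPM in depth-matched cells. Its log2 fold change was 3.23 ± 0.09 (edgeR, adjusted p = 2.5e-08), and 185 of 195 and 176 of 178 S phase cells held at least 1 UMI. Lig1, the ligase that joins lagging strand fragments, had 234.8 and 221.1 CPM against 18.4 and 13.4 CPM (3.86 ± 0.15). Pclaf, a protein that binds Pcna, was among the genes of largest fold, with 375.7 and 297.4 CPM against 6.44 and 3.90 CPM (6.03 ± 0.14).

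Nucleotide supply followed with smaller folds. Of 20 genes 18 were higher and 0 lower (median 1.27), and the 2 not called were Atic and Nme1. Rrm1, the large subunit of ribonucleotide reductase, had 171.9 and 140.9 CPM in S phase cells against 28.7 and 34.0 CPM in depth-matched cells (2.31 ± 0.13). Tk1, thymidine kinase, had 106 and 166 UMIs in S phase cells and 0 and 2 UMIs in depth-matched cells. Ung, the glycosylase that removes uracil from DNA, had 87.6 and 63.8 CPM against 0.644 and 2.51 CPM.

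Genes that rebuild chromatin and guard the fork moved with them. In chromatin assembly 18 of 19 genes were higher and 0 lower (median 1.69), and in checkpoint and repair 24 of 27 were higher and 0 lower (median 2.75). Hells, a chromatin remodeller that helps maintain DNA methylation, on chromosome 19 (38930915 to 38971051, plus strand), had 199.9 and 187.3 CPM in S phase cells against 2.58 and 3.07 CPM in depth-matched cells, a log2 fold change of 6.08 ± 0.16 (edgeR, adjusted p = 1.4e-08). Dnmt1, the maintenance methyltransferase, had 227.0 and 243.5 CPM against 50.3 and 70.0 CPM (1.98 ± 0.10). Brca1, which acts in repair at stalled forks, had 78.9 and 56.7 CPM against 3.87 and 1.95 CPM (4.55 ± 0.25). Cohesin genes moved less: 6 of 11 were higher and 0 lower (median 0.37), among them the ring subunit Smc1a with 327.5 and 280.8 CPM against 174.6 and 165.7 CPM (0.84 ± 0.09).

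**Figure D2:**
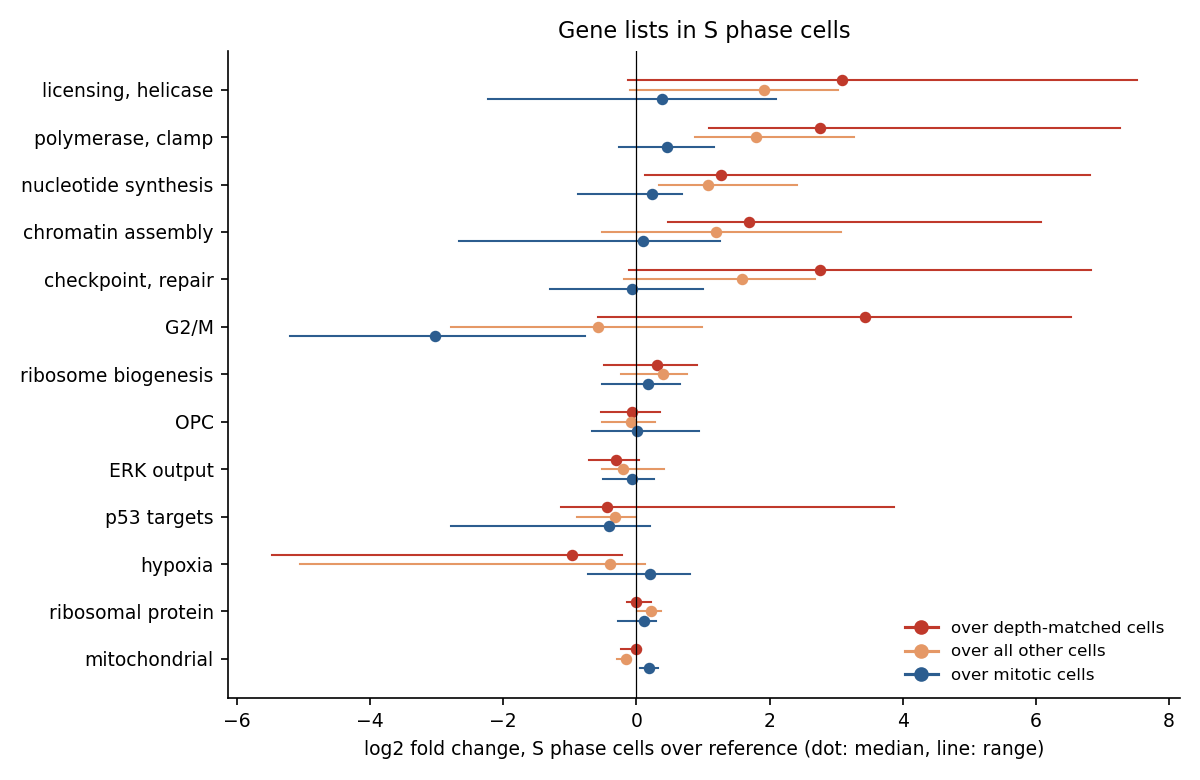
Log2 fold change of S phase cells over depth-matched, all other and mitotic cells for 13 gene lists, with the median as a dot and the lowest and highest gene as the ends of a line. The replication lists lie well above 0 against depth-matched cells (medians 1.27 to 3.08), ribosomal and mitochondrial genes lie at 0 against depth-matched cells, and the G2/M list falls on opposite sides against depth-matched (3.43) and mitotic cells (-3.02).

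The regulators upstream of replication were unequal. In the list of E2F and Rb family genes 13 of 17 were higher and 0 lower. E2f1, an activator, had 123 and 154 UMIs in S phase cells and 1 and 0 UMIs in depth-matched cells, 37.0 and 37.8 CPM against 0.322 and 0 CPM (edgeR, adjusted p = 2.1e-06). E2f3, another activator, had 61.7 and 58.4 CPM against 13.2 and 17.0 CPM (1.98 ± 0.15). E2f4 and E2f5, which act mainly as repressors, did not pass: E2f4 had 18.4 and 18.6 CPM against 12.2 and 19.5 CPM, and its ranges overlapped. Among the pocket proteins Rbl1 (p107) had 40.6 and 35.8 CPM against 2.25 and 1.39 CPM (4.39 ± 0.26), whereas Rb1 had 31.6 and 43.7 CPM against 27.1 and 31.5 CPM and did not pass (0.37 ± 0.14, adjusted p = 0.11 in edgeR). With S phase limited to cells with fewer than 3 mitotic genes Rb1 passed as higher (0.58, adjusted p = 0.023 in edgeR).

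The cyclins divided in the same uneven way. Ccne2, a cyclin E that fires origins with Cdk2, on chromosome 4 (11191351 to 11204779, plus strand), had 69.2 and 56.9 CPM in S phase cells against 2.58 and 1.12 CPM in depth-matched cells, a log2 fold change of 5.11 ± 0.23 (edgeR, adjusted p = 2.6e-07). Ccne1 had 29.8 and 29.0 CPM against 4.19 and 3.07 CPM (3.03 ± 0.24). The D cyclins, which carry growth factor signals to Rb, did not pass. Ccnd1 had 2328 and 2699 CPM in S phase cells against 2561 and 2563 CPM in depth-matched cells, with overlapping ranges and a log2 difference of -0.02 ± 0.09. Ccnd2 had 803.4 and 1158 CPM against 838.3 and 1080 CPM (0.03 ± 0.08), and Ccnd3 was at 0.22 ± 0.09. Ccnd3 passed as higher when S phase cells had fewer than 3 mitotic genes (0.30, adjusted p = 0.041 in edgeR) and against all other kept cells, at 140.6 and 132.8 CPM against 115.2 and 117.0 CPM (0.28 ± 0.07), the last a call that ended with DESeq2 or without the pool block. Their kinase Cdk4 was slightly higher (380.2 and 332.8 CPM against 303.5 and 242.9 CPM, 0.39 ± 0.09), a call that ended without the pool block or without the 5% of cells with most UMIs.

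Of the 7 CDK inhibitor genes 3 were lower, 2 higher and 2 not called. Cdkn2b, which encodes p15 and blocks Cdk4 and Cdk6, on chromosome 4 (89306299 to 89311039, minus strand), had 28.3 and 36.8 CPM in S phase cells against 76.4 and 108.8 CPM in depth-matched cells. Its log2 fold change was -1.50 ± 0.12 (edgeR, adjusted p = 1.2e-05), and the S phase level did not differ by this test from the 20.8 and 24.4 CPM of mitotic cells (0.47 ± 0.13, adjusted p = 0.052 in edgeR, below 0.05 under 4 of the alternatives). Cdkn1b (p27) was lower by a small amount, 74.7 and 85.4 CPM against 101.8 and 107.6 CPM (-0.38 ± 0.10), and Cdkn2a likewise (-0.47 ± 0.12). Cdkn2c (p18) was higher, with 49.7 and 51.1 CPM against 32.5 and 37.6 CPM (0.52 ± 0.12), as was Cdkn2d (p19; 0.40 ± 0.11). With DESeq2 or without the pool block the calls of Cdkn1b, Cdkn2a, Cdkn2c and Cdkn2d ended, whereas that of Cdkn2b held, and another random draw of depth-matched cells also ended those of Cdkn2c and Cdkn2d. With S phase limited to cells with fewer than 3 mitotic genes, Cdkn2c was at 0.20 and Cdkn2d at 0.26 on the log2 scale, and neither passed (adjusted p = 0.33 and 0.20 in edgeR). Cdkn1a (p21) had 132.8 and 132.3 CPM in S phase cells against 144.3 and 220.9 CPM and missed the threshold (-0.45 ± 0.16, adjusted p = 0.086 in edgeR). It passed as lower under 6 alternatives, among them another random draw of depth-matched cells (-0.70) and the removal of the 5% of cells with most UMIs (-1.06).

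**Figure D3:**
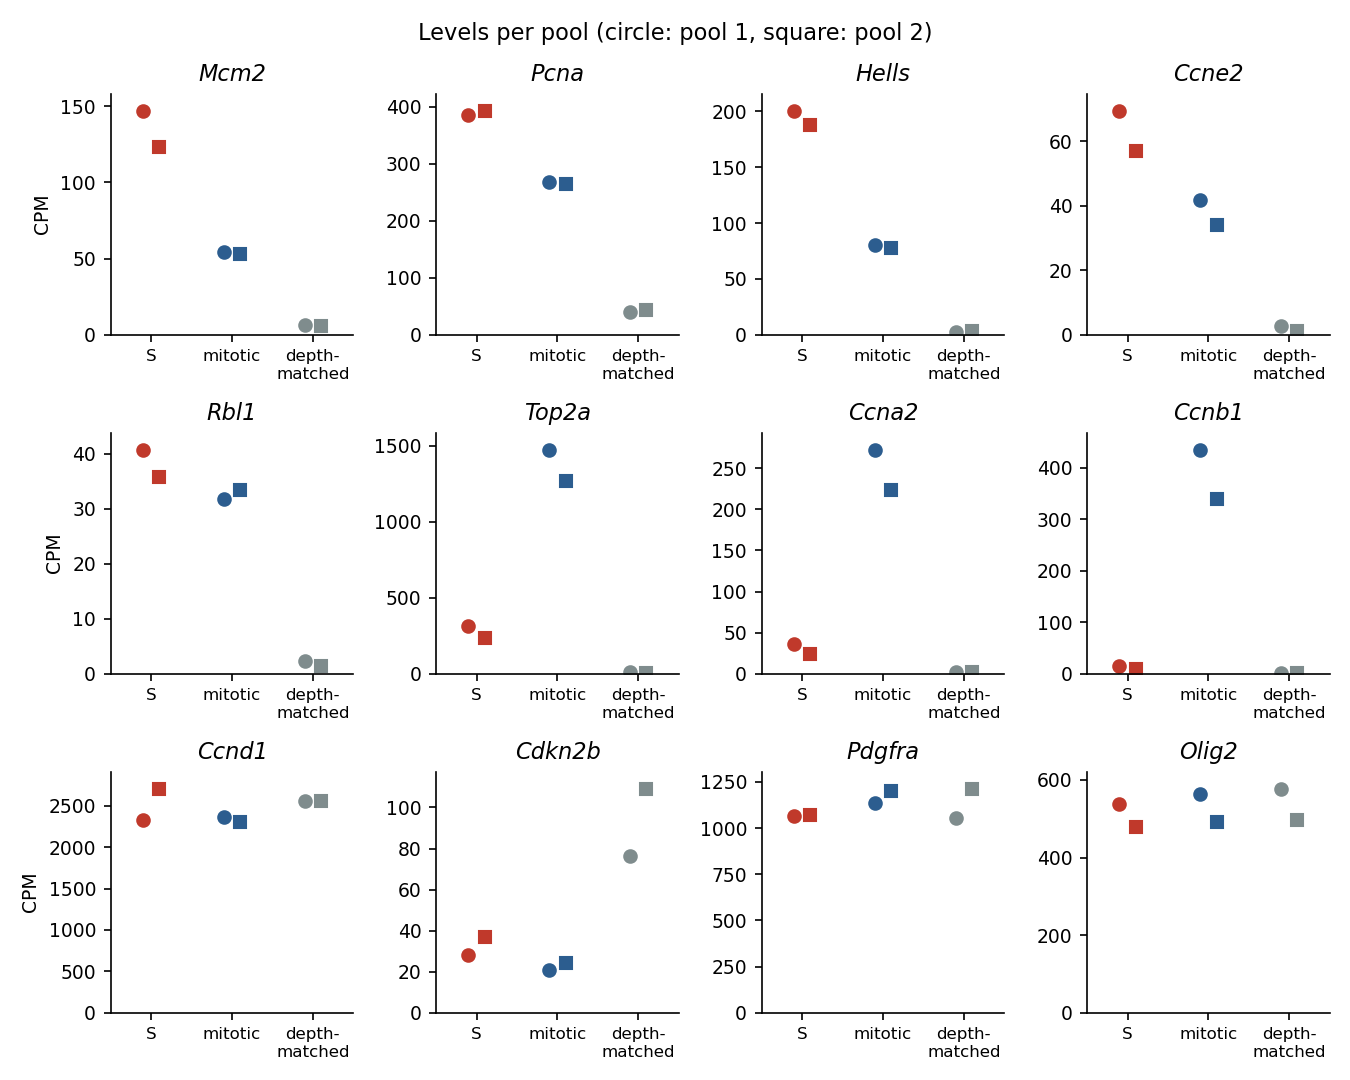
CPM of 12 genes in S phase, mitotic and depth-matched cells (horizontal axis), 1 point per pool, on linear axes from 0. Mcm2, Pcna, Hells and Ccne2 are highest in S phase cells, Top2a, Ccna2 and Ccnb1 are highest in mitotic cells, and Cdkn2b is highest in depth-matched cells (76.4 and 108.8 CPM).

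Mitotic genes outside the rule were present in S phase cells at intermediate levels. Against depth-matched cells 34 of 36 were higher and 0 lower (median 3.43). Depth-matched cells held 0 mitotic rule genes, S phase cells up to 3 and mitotic cells at least 4, so this order comes with the choice. Against all other kept cells, mitotic ones included, 7 of the 36 were higher and 20 lower (median -0.58). Top2a, the topoisomerase that untangles replicated DNA, had 315.2 and 235.4 CPM in S phase cells against 10.6 and 8.09 CPM in depth-matched cells (4.87 ± 0.13), and 1471 and 1272 CPM in mitotic cells. Mki67, the source of the Ki-67 antigen, had 172.2 and 125.7 CPM against 8.70 and 3.90 CPM in depth-matched cells (4.58 ± 0.17). Pttg1 (securin) and Anln (a protein of the cleavage ring) were the members not called, and Anln passed once barcodes with microglial or oligodendrocyte markers had been left out, at 4.39 in place of 0.72 on the log2 scale. In each cell, the 55 replication genes held a median of 44.4 and 40.7 UMIs per 10000 in S phase cells, against 19.9 and 20.2 in mitotic cells and 7.64 and 7.81 in depth-matched cells. The 36 mitotic genes held 18.9 and 15.8 per 10000 in S phase cells, against 167.1 and 176.6 in mitotic and 2.40 and 2.32 in depth-matched cells.

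**Figure D4:**
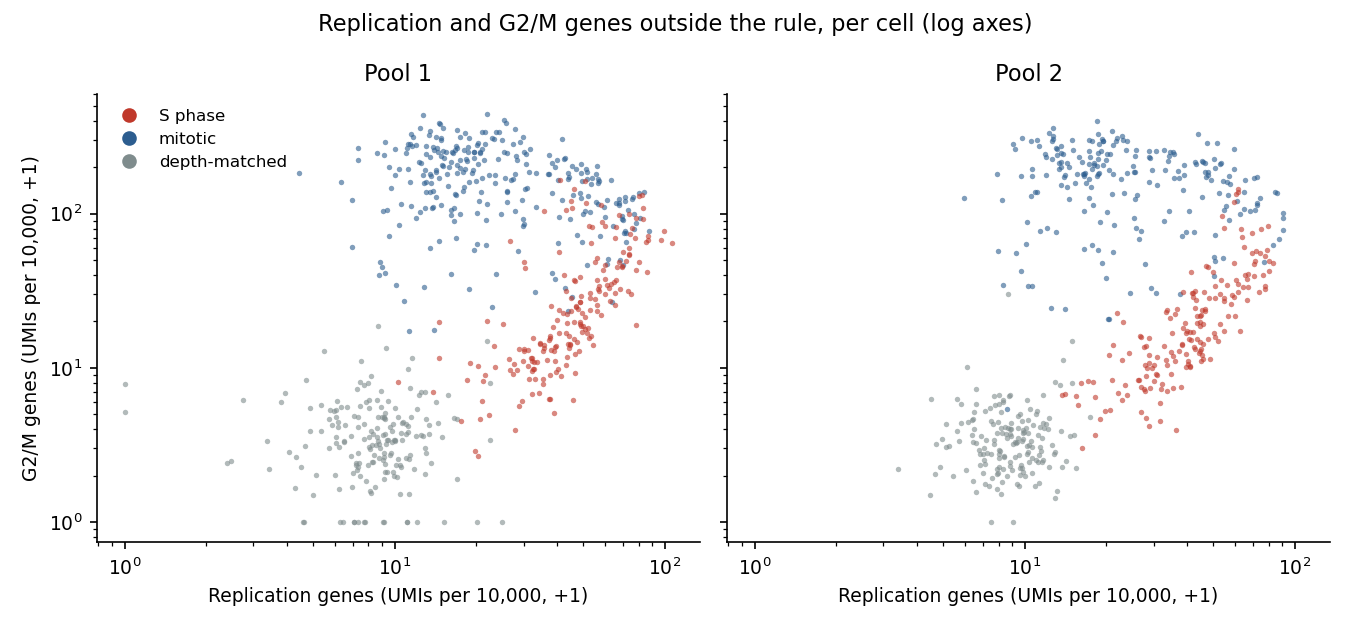
Each point is a cell, placed by its UMIs per 10000 of 55 replication genes (horizontal) and of 36 G2/M genes (vertical), both outside the rule and on log axes after adding 1, for pool 1 (left) and pool 2 (right). S phase cells (medians 44.4 and 18.9 in pool 1) lie to the right of depth-matched cells and run up towards the mitotic cells without a gap.

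The comparison with mitotic cells sets S phase cells against the other dividing cells of the same tumours. Of the mitotic cells, 150 of 278 and 118 of 217 also held at least 5 replication genes, so this reference includes cells with both programmes. Of 12152 genes tested 2.87% were higher in S phase cells than in mitotic cells and 6.76% were lower. Among licensing and helicase genes 11 of 25 were higher and 1 lower (5 and 1 with DESeq2), and among polymerase and clamp genes 15 of 30 were higher and 0 lower (4 and 0). Checkpoint and repair genes had 4 of 27 higher and 2 lower (2 and 1 with DESeq2), and nucleotide synthesis genes had 3 of 20 higher and 2 lower (1 and 1). Chromatin assembly was divided, with 5 of 19 higher and 5 lower (1 and 2 with DESeq2), and of 11 cohesion genes 0 were higher, also at an unadjusted p under 0.05 in edgeR and with DESeq2, and 5 were lower (3 with DESeq2). Ung, which was higher in S phase cells, had 87.6 and 63.8 CPM in S phase cells against 17.2 and 14.0 CPM in mitotic cells (2.22 ± 0.17; edgeR, adjusted p = 1.0e-05). Mcm4, a helicase subunit, had 183.6 and 172.5 CPM against 66.0 and 66.2 CPM (1.38 ± 0.12). Pcna differed less, at 386.5 and 392.2 CPM against 267.6 and 265.4 CPM (0.49 ± 0.08), a call that ended when 4 replication genes sufficed for S phase. Genes of these lists that missed the threshold are not shown to be alike in the 2 sets.

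Genes lower in S phase than in mitotic cells came from all of these lists but that of polymerase and clamp genes. Licensing (1 of 25), checkpoint and repair (2 of 27) and nucleotide synthesis (2 of 20) stood near the 6.76% of all genes tested. Chromatin assembly (5 of 19) and cohesion (5 of 11) stood above it. Dbf4, the activator of the kinase that fires origins, was lower in S phase cells, with 32.2 and 22.1 CPM against 127.1 and 116.6 CPM in mitotic cells (-2.23 ± 0.15). Tk1 had 31.9 and 40.7 CPM against 59.8 and 69.6 CPM (-0.88 ± 0.13), and Rrm1 had 171.9 and 140.9 CPM against 207.0 and 205.3 CPM (-0.46 ± 0.10); both calls ended without the pool block, and that of Rrm1 also with DESeq2. H2afx, the histone variant phosphorylated at DNA breaks, was lower at 98.1 and 82.0 CPM against 601.7 and 499.6 CPM (-2.66 ± 0.09). Rad21, the cohesin subunit cut at anaphase, had 159.5 and 176.5 CPM against 470.7 and 489.7 CPM (-1.57 ± 0.09).

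The regulators differed between S phase and mitotic cells. E2f1 was higher in S phase cells (37.0 and 37.8 CPM against 16.0 and 11.3 CPM in mitotic cells, 1.41 ± 0.19), and so was Ccne2 (69.2 and 56.9 CPM against 41.9 and 33.9 CPM, 0.69 ± 0.12), whose call ended with DESeq2 or without the pool block. Foxm1, the activator of mitotic genes, was lower (15.7 and 10.3 CPM against 79.2 and 92.3 CPM, -2.80 ± 0.17). Ccna2, the cyclin of late S phase and G2, had 36.7 and 23.8 CPM against 271.6 and 223.8 CPM (-3.10 ± 0.12), and Ccnb1, the mitotic cyclin, had 14.4 and 8.59 CPM against 433.3 and 338.4 CPM (-5.14 ± 0.13). Cdkn2c (-2.37 ± 0.10) and Cdkn2d (-1.99 ± 0.09) were lower in S phase cells: Cdkn2c had 49.7 and 51.1 CPM against 260.6 and 243.3 CPM in mitotic cells. Ccnd1 again did not pass, at 2328 and 2699 CPM against 2369 and 2303 CPM. All but 1 of the 36 mitotic genes outside the rule were lower (35, median -3.02), and Pttg1, at -0.78 on the log2 scale, was lower only at an unadjusted p under 0.05 and passed under 3 of the alternatives.

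Canonical histone genes, whose products package newly made DNA, were higher than in depth-matched cells in part and lower than in mitotic cells. The mitotic set includes 150 and 118 cells that also held at least 5 replication genes. Their share of the histone values is not given here. Against depth-matched cells 23 of 51 tested were higher and 4 lower (median 1.63), and against mitotic cells 0 were higher and 45 lower (median -2.75; 0 and 32 with DESeq2). Hist1h1b, a linker histone, had 50.3 and 83.2 CPM in S phase cells, 398.0 and 629.8 CPM in mitotic cells and 3.87 and 2.51 CPM in depth-matched cells. Summed over the 61 genes listed in both pools, S phase cells held 827.8 and 1058 CPM, against 3764 and 5431 CPM in mitotic and 852.8 and 775.9 CPM in depth-matched cells. Hist1h2bc, which is also made as a polyadenylated transcript, was lower than in depth-matched cells at 93.9 and 89.3 CPM against 235.2 and 197.4 CPM (-1.23 ± 0.10). Most canonical histone transcripts end in a stem-loop and have no poly(A) tail, and these libraries were made from polyA RNA, so the values are those of the captured fraction alone, and near-identical copies of these genes can share reads.

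S phase cells were not uniform. They were divided by the number of mitotic rule genes found, 0, 1, 2 or 3 (77, 58, 37 and 23 cells in pool 1 and 78, 56, 28 and 16 in pool 2), and a slope per further gene was tested with edgeR. The strata also differed in depth, with median UMIs of 15285, 17382, 15649 and 18281 in pool 1 and 17854, 20695, 23542 and 25952 in pool 2. The median number of replication rule genes found rose as well, at 6, 7, 8 and 9 in both pools. Slopes of other replication genes run along that rise too. Of 9615 genes tested 1.89% had a positive slope and 0.229% a negative one. Because the strata were made from mitotic genes, the 34 of 35 other mitotic genes with positive slopes (median 0.73 per gene found) come with the choice. Of the canonical histone genes 14 of 19 had positive slopes and 0 negative, with a median of 0.88; 1 was negative at an unadjusted p under 0.05 in edgeR and 0 with DESeq2.

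Hist1h2ap, a core histone, had 31.2, 36.2, 167.8 and 308.2 CPM over the 4 strata in pool 1 and 23.6, 34.8, 69.2 and 590.7 CPM in pool 2, a slope of 1.53 ± 0.09 on the log2 scale (edgeR, adjusted p = 5.7e-17). Its UMIs were concentrated in few cells: in the stratum with 3 mitotic genes the highest cell gave 38.5% of them in pool 1 and 72 of 288 UMIs in pool 2, and the median cell of all S phase cells held 0. Ccne1 stayed flat in the first strata and was highest in the last, with 21.9, 18.1, 35.3 and 71.1 CPM in pool 1 and 20.2, 19.7, 33.3 and 73.8 CPM in pool 2 (0.64 ± 0.10). Ccna2 climbed through the strata of both pools, with 18.6, 22.6, 68.9 and 77.6 CPM in pool 1 and 8.76, 18.9, 32.1 and 69.7 CPM in pool 2 (0.86 ± 0.10). Fewer replication genes moved: 3 of 24 licensing genes, 4 of 30 polymerase and clamp genes and 6 of 20 nucleotide synthesis genes had positive slopes, and 0 of each had a negative one, also at an unadjusted p under 0.05 in edgeR and with DESeq2. Pcna was one of them, at 309.7, 328.0, 536.8 and 538.9 CPM in pool 1 and 352.2, 345.6, 452.6 and 543.5 CPM in pool 2 (0.27 ± 0.04), whereas E2f1 did not pass (0.27 ± 0.09, adjusted p = 0.12 in edgeR) except without the 5% of cells with most UMIs (0.42).

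E2f7, an E2F repressor of the same programme, had 13.5, 17.2, 30.0 and 60.4 CPM in pool 1 and 8.76, 6.05, 10.3 and 39.0 CPM in pool 2 (0.76 ± 0.13), and its call ended without pool 1. Tyms, thymidylate synthase, had 54.8, 74.1, 146.6 and 133.6 CPM in pool 1 and 49.8, 58.2, 78.2 and 116.9 CPM in pool 2 (0.45 ± 0.06). Ccnd2 had a shallow negative slope, with 924.7, 798.0, 736.4 and 588.5 CPM in pool 1 and 1221, 1164, 1101 and 1040 CPM in pool 2 (-0.13 ± 0.03), and its call ended without the pool block or without pool 1. In all, 204 genes were called in the 2 pools together, 91 without pool 1 and 138 without pool 2.

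**Figure D5:**
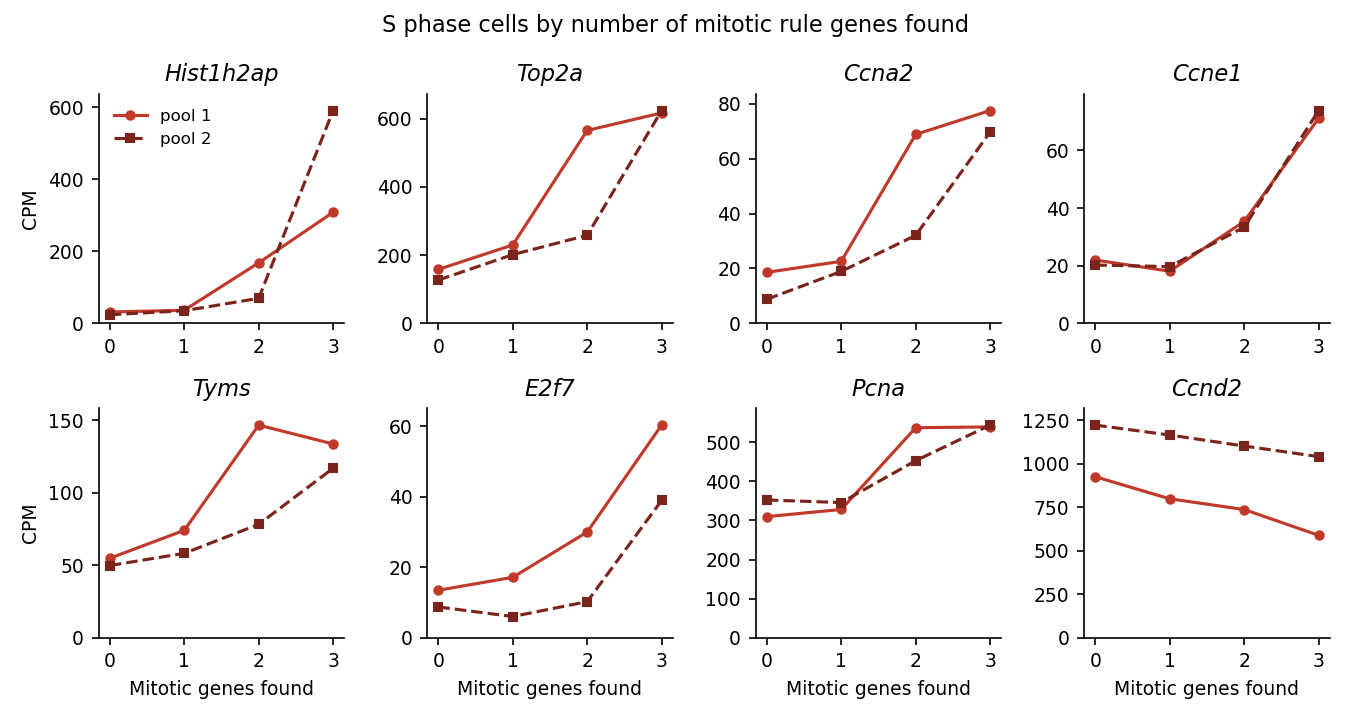
CPM of 8 genes in S phase cells by the number of mitotic rule genes found (horizontal axis, 0 to 3), 1 line per pool, on linear axes from 0. Hist1h2ap and Ccne1 stay low in the first 2 strata and are highest in the last, Ccna2 climbs throughout, and Ccnd2 declines in both pools.

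Genes of the OPC lineage differed little between S phase and depth-matched cells. Against depth-matched cells 0 of 17 OPC genes were higher and 1 was lower, with a median of -0.07. At an unadjusted p under 0.05 in edgeR 1 was higher and 2 were lower, and DESeq2 called 0 either way. Pdgfra, on chromosome 5 (75152292 to 75198215, plus strand), had 1067 and 1073 CPM in S phase cells against 1053 and 1210 CPM in depth-matched cells, with overlapping ranges. Olig2, a transcription factor of the lineage, had 538.5 and 477.8 CPM against 575.8 and 497.5 CPM, and Cspg4 (NG2) had 505.7 and 560.5 CPM against 467.8 and 517.0 CPM. The member that was lower was Vcan, a matrix proteoglycan, with 365.4 and 281.0 CPM against 463.0 and 346.9 CPM (-0.32 ± 0.08), a call that ended with DESeq2, without the pool block or with 6 replication genes required. Against mitotic cells 3 of the 17 OPC genes were higher and 2 lower (1 and 1 with DESeq2). C1ql1, a secreted protein of OPCs, was higher in S phase cells, at 343.8 and 275.6 CPM against 167.7 and 142.0 CPM in mitotic cells (0.95 ± 0.15), a call that ended without the pool block.

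Bcas1, a marker of cells leaving the OPC state, was the 1 of 11 committed precursor genes called, with 170.4 and 198.5 CPM in S phase cells against 456.9 and 298.4 CPM in depth-matched cells (edgeR, adjusted p = 0.0020), a log2 difference of -1.44 in pool 1 and -0.56 in pool 2. Summed over the 11 committed precursor genes, S phase cells held 1171 and 1511 CPM against 2536 and 1503 CPM in depth-matched cells. Markers of other cell types moved with this contrast. The 10 microglial genes summed to 25.6 and 16.2 CPM in S phase cells against 453.6 and 391.3 CPM in depth-matched cells, and 6 and 5 of them were at 0 in S phase cells. The 9 mature oligodendrocyte genes summed to 229.1 and 797.1 CPM against 3544 and 2050 CPM. All other kept cells held 104.2 and 161.2 CPM of the microglial genes and 982.7 and 1289 CPM of the oligodendrocyte genes. Depth-matched cells stood above all other kept cells for both lists, so these gaps describe the reference as well as the S phase cells. Without the barcodes that carried 3 or more microglial or oligodendrocyte markers, 1560 genes were called against depth-matched cells in place of 1631, and 1440 were in both sets.

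Genes of several stress and signalling programmes were lower in S phase cells than in depth-matched cells. Of 13 hypoxia genes 5 were lower and 0 higher (median -0.96), and DESeq2 called 4 lower and 0 higher. Bnip3, a mitophagy receptor, had 10.8 and 17.9 CPM in S phase cells against 37.7 and 49.4 CPM (-1.59 ± 0.17; edgeR, adjusted p = 0.00012), and Ddit4, an inhibitor of mTOR signalling, had 33.7 and 31.2 CPM against 63.5 and 85.9 CPM (-1.20 ± 0.14). Of 12 glycolysis genes 4 were lower and 0 higher (2 and 0 with DESeq2), with Aldoa (aldolase) at 258.3 and 258.2 CPM against 354.7 and 454.0 CPM (-0.64 ± 0.09). Against all other kept cells the glycolysis list ran the other way, with 3 of 12 higher and 0 lower (2 and 0 with DESeq2), and 1 lower at an unadjusted p under 0.05 in edgeR. Against mitotic cells Aldoa was higher, at 258.3 and 258.2 CPM against 168.3 and 187.2 CPM (0.49 ± 0.09), a call that ended without the pool block. Of the 13 hypoxia genes 1 was lower than in mitotic cells and 0 were higher (median 0.21). At an unadjusted p under 0.05 in edgeR 2 of them were higher, and DESeq2 called 0 either way. Of the 12 glycolysis genes 2 were higher than in mitotic cells and 0 lower (1 and 0 with DESeq2).

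Of 14 genes of ERK output 6 were lower than in depth-matched cells and 0 higher (median -0.30), and DESeq2 called 3 lower and 0 higher. Dusp6, a phosphatase of ERK, had 84.0 and 103.6 CPM against 108.3 and 172.3 CPM (-0.56 ± 0.10), and Egr1, an early response factor, had 204.1 and 284.4 CPM against 310.9 and 404.1 CPM (-0.55 ± 0.08); both calls ended without the pool block. Of 12 p53 targets 5 were lower and 1 higher (2 and 1 with DESeq2). Trp53inp1, which promotes cell death and autophagy, had 44.0 and 30.4 CPM against 83.5 and 66.4 CPM (-1.02 ± 0.11), and the one that was higher, Gtse1, is itself a gene of G2 phase. Genes of ribosome biogenesis ran the other way, with 9 of 20 higher and 0 lower (median 0.31; 5 and 0 with DESeq2). Nop58, of the particle that methylates ribosomal RNA, had 138.2 and 151.4 CPM against 75.4 and 83.7 CPM (0.87 ± 0.09), while Myc itself did not pass. Compared with mitotic cells, 1 of the 14 ERK output genes was lower and 0 higher (median -0.07), and DESeq2 called 0 either way. Of the p53 targets 6 were lower than in mitotic cells and 0 higher (1 and 0 with DESeq2). Of the ribosome biogenesis genes 3 were higher and 1 lower (2 and 0 with DESeq2).

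Against all other kept cells, which differ from the depth-matched cells both in depth and in holding cells with more replication and mitotic genes, some lists gave other counts. Of 14192 genes tested 10.2% were higher in S phase cells and 6.45% were lower, and 76 of 81 ribosomal protein genes were among the higher, by small amounts (median 0.21), and DESeq2 called 35 of them. Rps2, of the small subunit, had 2144 and 2292 CPM in S phase cells against 1747 and 1817 CPM in all others (0.36 ± 0.04), a call that ended without the pool block. Against depth-matched cells 0 of the same 81 genes passed in edgeR or with DESeq2, 1 had an unadjusted p under 0.05, and their median was -0.01. Mitochondrially encoded genes were lower than in all other cells in 7 of 13 cases (1 with DESeq2) and in 0 of 13 against depth-matched cells, where 0 had an unadjusted p under 0.05 in edgeR and DESeq2 called 0. Pdgfra followed the same course, with 1067 and 1073 CPM in S phase cells against 1302 and 1325 CPM in all others (-0.25 ± 0.05), a call absent at matched depth and ended without the pool block. Replication genes were higher against both sets: Pcna had 97.8 and 92.6 CPM in all others (2.08 ± 0.07), and 30 of 30 polymerase and clamp genes were higher there too.

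The other cells included the mitotic ones, and this turned some cell cycle genes round. Ube2c, the conjugating enzyme of the anaphase ubiquitin ligase, had 42.4 and 24.8 CPM in S phase cells against 224.5 and 149.9 CPM in all others (-2.44 ± 0.09). With mitotic cells left out of the others its log2 fold change was 0.62. Ccna2, at 36.7 and 23.8 CPM against 58.0 and 37.0 CPM (-0.60 ± 0.11), turned to 2.70 in the same way, and Cdkn2c, at -0.52 with mitotic cells included, turned to 0.46.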

How the data were processed

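PolyA RNA of sorted cells was captured in droplets by the 10x Genomics 3ʹ kit, per the labels' protocols. Cell Ranger 6.0.2 and GRCm38/mm10 are named in the submitters' processing notes. The authors deposited UMI counts as whole numbers, a row per gene and a column per barcode, with no normalization; any filter before deposit is not given in the sources used here. Barcodes under 500 genes or over 15% mitochondrial UMIs were dropped (337 and 372), and the 16859 genes listed in both pools were used (98.6% had a position in GENCODE vM21). No doublets were removed. Cells were assigned by the rule and counts were summed per pool and set. Sums were tested with edgeR 4.0.16 (quasi-likelihood, filterByExpr, TMM, R 4.3.3) with the pool as a block, since each pool gives a sum to every set, with 1 residual degree of freedom against all other cells, 2 in the joint fit of S phase, mitotic and depth-matched cells and 5 for the slope. The 18 rule genes entered the sums and were left out of calls. SE is the log2 fold change divided by the square root of F. Depth-matched cells were drawn in 10 UMI bins per pool and were 5 and 7 fewer than the S phase cells, since bins ran short. The fits were tested on simulated data.

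Nothing says that the pools are more than 2 libraries of mixed tumours. Between sets of cells, p-values measure the spread between these pools, with the dispersion shared over genes. For the slope they also measure the scatter of the strata of a pool around a line. A small p-value of a slope is therefore no measure of how alike the pools were. The deposited files' names give the pools different day numbers, which the labels do not explain, so pool and day cannot be told apart. Intervals cover counting error only. Precision follows the summed depth of S phase cells, 3.33 M and 4.08 M UMIs. The members and gene lists were chosen with earlier results of these data known. Genes named are the rule genes, all E2F/Rb, cyclin/CDK and CDK inhibitor genes, up to 5 of smallest p per other list, and per comparison the 10 of largest fold each way with at least 20 CPM, of which a part is printed and some are not reported here; Pdgfra, Olig2 and Cspg4 were fixed markers, and genes that missed a list's call (Pttg1, Anln, Atic, Nme1, Orc3, Orc4, Orc5, Myc) and Gtse1 were named after their values were seen. Alternatives were DESeq2 1.42.0, its size factors, no low-count filter, no pool block, other thresholds of the rule, thinning, a 10% mitochondrial limit, another random draw, leaving out a pool, and leaving out the 5% of cells with most UMIs. Leaving out mitotic cells from the others, or barcodes with microglial or oligodendrocyte markers, was chosen after seeing the data.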

Additional observations from a re-analysis of the deposited data

How the results depend on the processing

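The number of genes called moved by more than 1.5 times under these alternatives. With DESeq2, 698 genes were called against all other cells (2367 in edgeR), 772 against depth-matched cells (1631), 437 against mitotic cells (1170) and 124 in the slope over mitotic genes (204). Without the replicate block (the pool), edgeR called 283, 783, 443 and 110. Each of these counts lies wholly within the genes called in the main analysis. Without the 5% of cells with most UMIs, 1810 genes were called against mitotic cells and 317 in the slope, and leaving out a pool gave 91 to 138 in the slope, the higher of which is within 1.5 times. For the other 3 comparisons, leaving out a pool leaves no residual degrees of freedom, so only values were obtained. The share of calls that were higher in S phase cells was 77.7% with DESeq2 and 89.0% without the pool block against all other cells (61.3% in the main analysis), 78.0% and 81.9% against depth-matched cells (67.1%), 11.4% and 9.71% against mitotic cells (29.8%), and 76.9% without a low-count filter in the slope (89.2%). The shares of S phase cells were 7.56% and 7.02% with 4 replication genes required, 4.22% and 4.58% with 6, and in pool 2 they were 4.06% after thinning and 4.62% without the deepest cells. Of 1003 alternative values for the genes named, 854 counted as unchanged, 42 lost a call, 18 gained one, 83 single-pool values without a test moved and 6 reversed. Tested values counted as unchanged when a call kept its direction or when neither setting gave a call, whatever the sign. Single-pool values without a test counted as unchanged when they lay within the SE of the main value. The reversed values were all against all other cells: Ccna2 at 0.30 without the deepest cells, 1.28 after thinning and 2.70 without mitotic cells, Cdkn2c at 0.49 after thinning and 0.46 without mitotic cells, and Ube2c at 0.62 without mitotic cells. The values without mitotic cells follow from the removal of those cells; for the others the cause was not tested. Depth limits low genes most: E2f1, Cdt1 and Tk1 rest on 0 to 3 UMIs per pool in depth-matched cells, and no fold is given for them there.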

Other observations

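A single S phase cell of pool 2 held most of the UMIs of Pcgf2, a Polycomb group gene, found in the S phase cells of that pool. Its 146 UMIs, out of 16429 in that cell, were 54.9% of the 266 Pcgf2 UMIs in all 178 S phase cells of pool 2, and no S phase cell of pool 1 held more than 3. In the stratum with 3 mitotic genes this cell gave 89.6% of the Pcgf2 UMIs, and the stratum stood at 334.3 CPM, against 23.7 CPM in that stratum of pool 1. Mt2, a metallothionein, was uneven in the same pool, where 1 cell of 116511 UMIs gave 32.8% of the 439 UMIs, against 29 Mt2 UMIs in pool 1. Both genes had been called: Pcgf2 had a slope of 1.03 over the strata (edgeR, adjusted p = 6.8e-07), a call that ended with DESeq2 and, at 0.15, without pool 2. Mt2 was higher in S phase than in mitotic cells (1.21; edgeR, adjusted p = 0.00066), a call that ended without the pool block and, at 0.31, without the 5% of cells with most UMIs.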
